A study of Homo sapiens with 10 samples.

Results

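Small RNA host genes are long non-coding RNA genes whose transcripts enclose small nucleolar RNAs (snoRNAs) or microRNAs (miRNAs). They were described here in BEAS2B, a human bronchial epithelial cell line, after transfection of miRNAs studied as exosomal markers of small cell lung cancer. Members were taken by symbol: those starting with MIR and ending with HG, those made of SNHG and a number, and GAS5, DANCR, ZFAS1 and EPB41L4A-AS1. This gave 75 of the 52402 symbols in the count tables, 25 snoRNA hosts and 50 miRNA hosts by name. Of these, 39 had at least 10 counts in at least 2 of the 10 libraries (24 snoRNA hosts and 15 miRNA hosts). The other 36 were not described further, and 19 of them were at 0 counts in every library. Of the 39, 38 passed the filter on low counts and were tested, and SNHG24, with 1 to 10 counts per library, was not. A member with few counts could pass that filter through the groups where it was high.

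All cells were BEAS2B, treated with a lipid transfection reagent and taken after 48 h, and each group had 2 libraries. The control group received a scrambled miRNA and was labelled WT (miRcontrol). The other groups received a mimic of miR-3124-5p (labelled overexpression, miR3124_mimic), a mimic of miR-200b-3p (labelled overexpression, miR200b_mimic), an inhibitor of miR-92b (labelled knockdown, miR92b_inhibitor), or all 3 agents at once (3miRNA_mixed). Each single agent and the scrambled control were used at 50 nM, and the amount of each agent in the mixed group was not given in the sources used here. A mimic is a synthetic duplex that raises the active miRNA far above its natural level, and an inhibitor is an antisense oligonucleotide that blocks it, so the groups are models of a transient and strong change in a single cell line.

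SnoRNAs guide the chemical modification of ribosomal and spliceosomal RNA. In human cells most are cut out of the introns of host genes, and the spliced remainder of a non-coding host is often a short-lived RNA. Several of these hosts, GAS5 and ZFAS1 among them, begin with a run of pyrimidines like the messenger RNAs of the translation machinery (5′ terminal oligopyrimidine, or TOP, RNAs), and are degraded by nonsense-mediated decay while they are being translated. MiRNA hosts carry a hairpin that is cut out in the nucleus, and the mature miRNA then binds its targets through the seed, bases 2 to 8. The level of a spliced host therefore need not follow that of the small RNA inside it.

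RefSeq (GRCh38.p14) placed at least 1 small RNA gene inside each of the 37 members that matched GENCODE release 29. GAS5, on the minus strand of chromosome 1 (chr1:173863900-173868882), enclosed 11 small RNA genes: SNORD74 to SNORD81, SNORD44, SNORD47 and SNORA103. All 11 lay in an intron of at least 1 of its transcripts. SNHG1 (chr11:62851988-62855914, minus strand) enclosed 9, among them SNORD22 and SNORD25 to SNORD31. ZFAS1 (chr20:49278178-49295738, plus strand) enclosed SNORD12, SNORD12B and SNORD12C, and DANCR (chr4:52712404-52720351, plus strand) enclosed SNORA26 and MIR4449. SNHG8 (chr4:118278709-118279823, plus strand) held SNORA24, and SNHG19 (chr16:2154797-2155358, minus strand) held SNORD60. The small RNAs themselves were not measured in these libraries: all 82 miRNA symbols were at 0 counts in every library, and the SNORD symbols together held 237 to 344 counts per library.

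The sequences below show the agents that were introduced or blocked and the best known products of the miRNA hosts whose spliced transcripts are described further on, with the seed in capitals. The study's marker was miR-92b-5p, but neither the labels nor its methods named the arm that the inhibitor blocks, so both arms are shown. The agents map to chr1:248826383-248826403 (miR-3124-5p), chr1:1167160-1167181 (miR-200b-3p), chr1:155195237-155195258 (miR-92b-3p) and chr1:155195196-155195217 (miR-92b-5p), each on the plus strand of GRCh38.p14.
hsa-miR-3124-5p: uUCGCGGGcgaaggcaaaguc
hsa-miR-200b-3p: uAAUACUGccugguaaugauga
hsa-miR-92b-3p: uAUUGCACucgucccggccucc
hsa-miR-92b-5p: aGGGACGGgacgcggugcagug
hsa-miR-92a-3p (host MIR17HG): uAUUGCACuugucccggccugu
hsa-let-7a-5p (hosts MIRLET7BHG and MIR100HG): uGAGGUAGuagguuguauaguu
hsa-let-7b-5p (host MIRLET7BHG): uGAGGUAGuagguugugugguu
hsa-miR-210-3p (host MIR210HG): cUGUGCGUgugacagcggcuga
hsa-miR-31-5p (host MIR31HG): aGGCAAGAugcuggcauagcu
hsa-miR-503-5p (host MIR503HG): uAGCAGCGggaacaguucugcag
Of the agents, only miR-92b-3p shared its seed with a product of a described host: AUUGCAC is also the seed of miR-92a-3p, which MIR17HG carries. The 5p arms of the let-7 products of MIRLET7BHG and MIR100HG shared the seed GAGGUAG, which is also the seed of miR-4458, carried by MIR4458HG.

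The 10 libraries held 13587666 to 18503890 counts. The libraries of a group differed by more than counting error (chi-square per degree of freedom 1.77 to 2.70). No source said whether they were separate transfections, so the p-values measure the spread between these libraries, which may be technical. ZEB1 and ZEB2, known targets of the miR-200 family, were lower in the miR200b_mimic group (log2 fold change -1.29 ± 0.07 and -2.27 ± 0.11, SE) and in the mixed group (-1.12 ± 0.06 and -1.66 ± 0.09). The keratins KRT7, KRT8 and KRT18 averaged at least 617 CPM in every group, while KRT19 averaged 0.760 to 14.4 CPM and the basal marker KRT5 had at most 9 counts in any library. Of the 11 markers of leukocytes, endothelium, fibroblasts and red cells, 8 (PTPRC, CD3E, PECAM1, COL1A2, PDGFRA, DCN, HBB and HBA1) had at most 4 counts in any library. The other 3 were detected and moved with the groups: CD68, also a lysosomal gene of many cells, averaged 18.5 (miR200b_mimic) to 39.7 CPM (miR92b_inhibitor), COL1A1 6.41 (miR92b_inhibitor) to 36.9 (miR200b_mimic), and CDH5 reached 3.26 in miR3124_mimic. Their part in the results was not tested. CDH1 and EPCAM, epithelial adhesion genes, averaged under 1 CPM in miRcontrol and rose by 6.02 ± 0.37 and 5.08 ± 0.31 (log2) in the miR200b_mimic group, so in the control the epithelial label rested on KRT7, KRT8 and KRT18.

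CPM of single members are given after edgeR's RLE normalization. A member was called at an adjusted p under 0.05 in edgeR's quasi-likelihood test across all 14884 genes tested. In these bulk samples, fewer cells expressing a gene and less RNA per cell cannot be told apart. The 4 comparisons with miRcontrol share the same 2 control libraries.

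The 24 snoRNA hosts together took fewer of the counts in the miR3124_mimic group and more in the miR92b_inhibitor group than in miRcontrol. Scaled to the library total, the miRcontrol libraries gave them 614 and 629 CPM, the miR3124_mimic libraries 471 and 480, the miR200b_mimic libraries 569 and 592, the miR92b_inhibitor libraries 769 and 786 and the mixed libraries 681 and 686. No 2 groups overlapped in this sum. For the 15 miRNA hosts the values were 153 and 162 CPM (miRcontrol), 125 and 125 (miR3124_mimic), 183 and 174 (miR200b_mimic), 174 and 176 (miR92b_inhibitor) and 161 and 157 (mixed). Here the mixed libraries lay within the control range and the miR3124_mimic libraries below it. With 2 libraries per group no exact test of such a sum between 2 groups can pass, and no test of it was made.

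**Figure D1:**
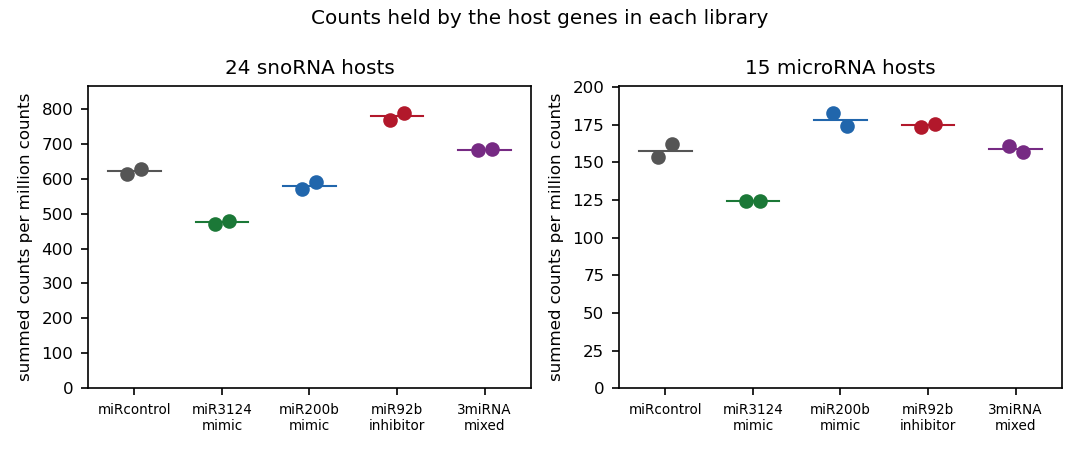
Summed counts of the 24 snoRNA hosts (left) and 15 miRNA hosts (right) in CPM of the library total, with 1 point per library and a line at the group mean. The miR3124_mimic libraries were lowest in both panels, and the miR92b_inhibitor libraries, at 769 and 786, were highest for the snoRNA hosts.

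Over the 5 groups, 26 of the 38 members tested (68.4%) differed in the F test, against 77% of all genes tested. By class, 18 of 23 snoRNA hosts and 8 of 15 miRNA hosts differed. Of the called members, the lowest group mean was in miR3124_mimic for 22 of the 26 and the highest in miR92b_inhibitor for 18. Over all 11464 genes that differed, miR3124_mimic was lowest for 31.6% and miR92b_inhibitor highest for 22.9%. SNHG10 (adjusted p = 0.378), EPB41L4A-AS1 (0.147) and MIR600HG (0.0724) were among the 12 that did not pass, and the SE of the 10 members with a mean under 2 CPM was 0.35 to 0.91 on the log2 scale in single comparisons with miRcontrol.

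**Figure D2:**
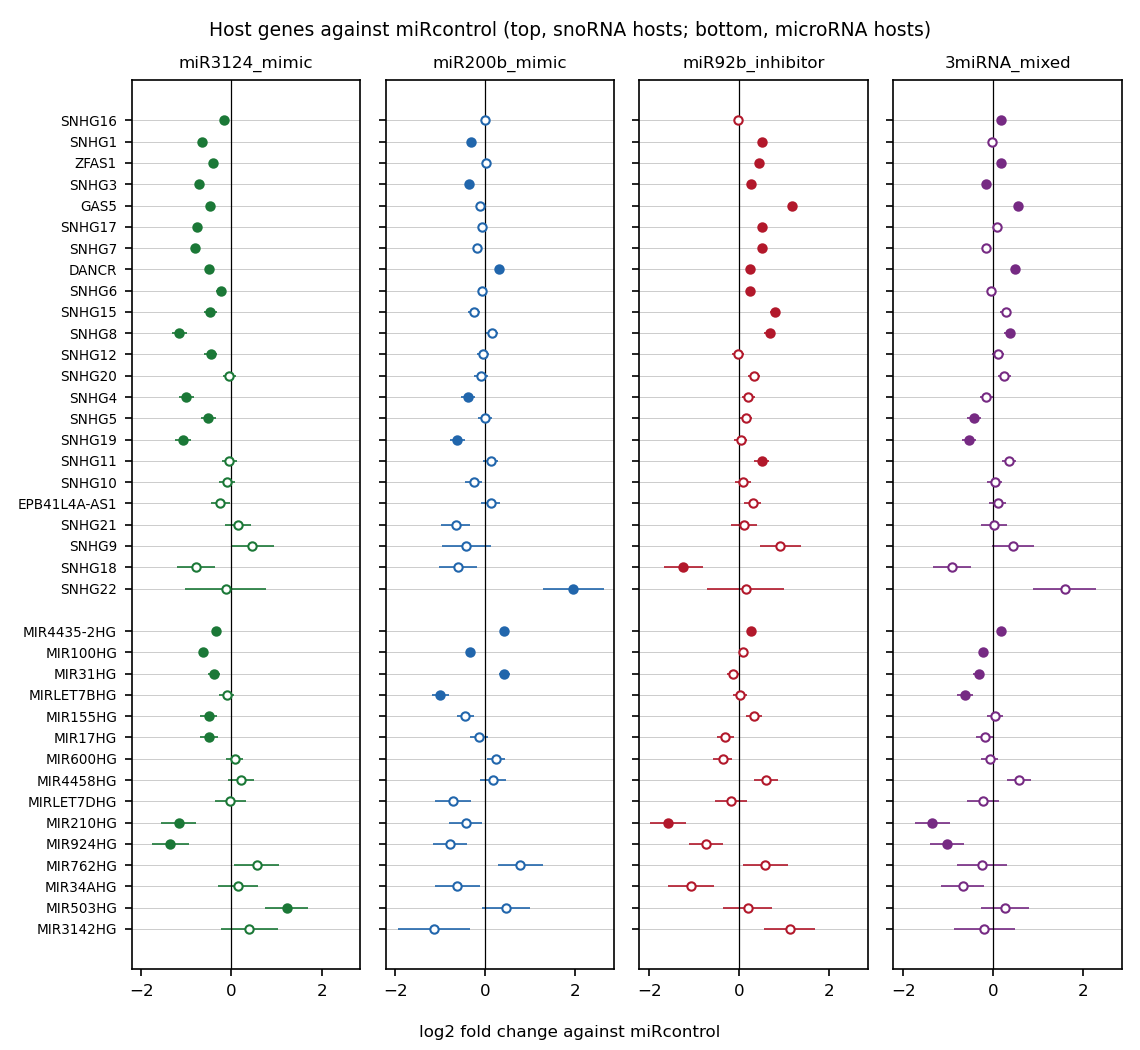
Log2 fold change against miRcontrol of the 38 members tested, with snoRNA hosts above and miRNA hosts below, each in order of mean CPM. Filled points passed an adjusted p of 0.05 and bars are 1 SE. In miR3124_mimic 22 filled points lie to the left of 0 and 1 to the right, and in miR92b_inhibitor 12 lie to the right and 2 to the left.

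The first comparison asked how the host genes responded to the miR-3124-5p mimic. Of the 38 members, 22 (57.9%) were lower and 1 (2.63%) was higher than in miRcontrol, whereas 51% of all genes were called, 25.3% lower and 25.7% higher. The median log2 fold change of the members was -0.40, against 0.0039 for all genes. Among the snoRNA hosts 15 of 23 were lower and 0 were higher. At an unadjusted p under 0.05 these numbers were 15 and 0, and DESeq2, another count test, called 14 lower and 0 higher. Over all 38 members DESeq2 called 17, all of them lower, with 41% of all genes called and 20.6% lower. It lost MIR155HG, MIR17HG, MIR210HG, MIR31HG, MIR503HG and SNHG6. A fold change of at least 2 was reached by 5 members that were lower and 1 that was higher, against 2.75% and 5.37% of all genes. The falls of the snoRNA hosts ran from -0.17 (SNHG16) to -1.16 (SNHG8) on the log2 scale.

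SNHG8, host of SNORA24, had 9.27 and 8.95 CPM in miRcontrol and 4.23 and 3.96 in miR3124_mimic. This was a log2 change of -1.16 ± 0.16 (adjusted p = 2.518e-08). SNHG19, host of SNORD60, went from 8.815 and 8.71 to 3.82 and 4.47 CPM (-1.07 ± 0.18, adjusted p = 1.338e-06). In both genes the transfected libraries lay far below both control libraries. SNHG4, host of SNORA74A and SNORA74D, went from 8.30 and 9.61 to 4.99 and 4.02 CPM (-1.00 ± 0.16). SNHG1, with 72.7 and 68.7 CPM in miRcontrol and 44.1 and 45.8 in miR3124_mimic, changed by -0.65 ± 0.06, and SNHG3, host of SNORA73A and SNORA73B, by -0.72 ± 0.07. SNHG16, the member with most counts, went from 216 and 218 to 193 and 194 CPM. That change of -0.17 ± 0.04 was small, yet it exceeded the spread between libraries (adjusted p = 0.000296).

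Of 15 miRNA hosts 7 were lower and 1 was higher. MIR100HG, host of let-7a-2, miR-100 and miR-125b-1, went from 25.1 and 28.8 to 16.8 and 17.8 CPM (-0.64 ± 0.09, adjusted p = 6.891e-08), and MIR4435-2HG from 84.7 and 86.5 to 66.8 and 67.8 CPM (-0.35 ± 0.05). MIR210HG, host of the hypoxia-responsive miR-210, had 31 and 36 counts in miRcontrol and 11 and 17 in miR3124_mimic (-1.17 ± 0.39). MIR924HG had 34 and 29 counts against 12 and 11 (-1.36 ± 0.41). The call of MIR924HG was lost without miR3124_mimic replicate 2 (log2 fold change -1.16, adjusted p = 0.0677). That of MIR210HG was lost without miR3124_mimic replicate 1 (-1.02, adjusted p = 0.0769) or miRcontrol replicate 2 (-1.04, adjusted p = 0.0786), and in DESeq2 (adjusted p = 0.0642). The 1 member called higher, MIR503HG, host of miR-503, had 8 and 9 counts in miRcontrol and 15 and 23 in miR3124_mimic (1.23 ± 0.48, adjusted p = 0.0302). Its call was lost without any 1 of the 4 libraries, at adjusted p = 0.0518 to 0.204, and in DESeq2 at 0.132.

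The second comparison asked how the host genes responded to the miR-92b inhibitor. Here 12 members (31.6%) were higher and 2 (5.26%) were lower, while 35.7% of all genes were called, 17.5% higher and 18.2% lower. DESeq2 called 9 of the 14, all higher, with 30.5% called of the genes to which it gave an adjusted p, and gave MIR210HG and SNHG18 no adjusted p. The median log2 fold change of the members was 0.22, against -0.0061 for all genes, and 0.10 without miRcontrol replicate 1. Of the snoRNA hosts 11 of 23 were higher and 1 was lower, and of the 15 miRNA hosts 1 was higher and 1 was lower. Whether the classes differ was not tested.

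GAS5 had the largest rise among the called members. It accumulates when cells stop growing and its transcript is a well known substrate of nonsense-mediated decay. It had 30.1 and 35.6 CPM in miRcontrol and 74.6 and 73.2 CPM in miR92b_inhibitor, a 2.25-fold rise (log2 fold change 1.17 ± 0.07, adjusted p = 2.702e-19). It was the only member called higher in this comparison with a fold change of at least 2, as 0.988% of all genes were; 2 members were lower by that much, as 0.927% of all genes were.
SNHG15, host of SNORA9, rose from 9.62 and 11.04 to 17.3 and 18.3 CPM (0.79 ± 0.11), and SNHG8 from 9.27 and 8.95 to 13.7 and 15.4 CPM (0.68 ± 0.12). Thus SNHG8 lay above the control in the inhibitor group and below it in the miR3124_mimic group. SNHG7, SNHG17 and SNHG1 rose by 0.51 ± 0.08, 0.51 ± 0.07 and 0.50 ± 0.05. ZFAS1 rose from 60.6 and 63.7 to 83.6 and 84.0 CPM (0.43 ± 0.06, adjusted p = 2.361e-08). DANCR had a smaller value, 0.23 ± 0.08 (adjusted p = 0.0240), whose call was lost without any 1 of the 4 libraries (adjusted p = 0.0552 to 0.153) and in DESeq2 (0.103).

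The members that were lower with the inhibitor had few counts. MIR210HG had 31 and 36 counts in miRcontrol and 10 and 13 in miR92b_inhibitor (-1.58 ± 0.40, adjusted p = 0.00158), and DESeq2 gave it no adjusted p. SNHG18 had 23 and 23 counts against 9 and 11 (-1.24 ± 0.44, adjusted p = 0.0228), and its call was lost without any 1 of the 4 libraries (adjusted p = 0.0791 to 0.120). DESeq2 gave SNHG18 no adjusted p either. MIR17HG, whose product miR-92a-3p has the seed of miR-92b-3p, had 4.75 and 5.07 CPM in miRcontrol and 3.79 and 4.11 with the inhibitor, a difference of -0.31 ± 0.19 that did not pass (adjusted p = 0.214).

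**Figure D3:**
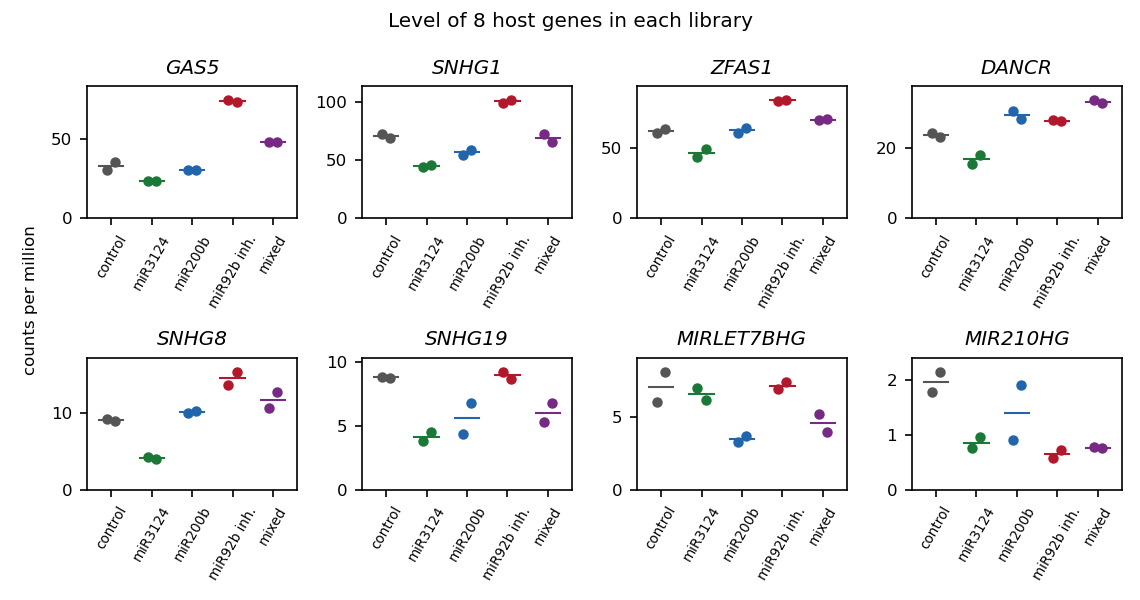
CPM of 8 members in each library, with a line at the mean of the 2 libraries of a group and vertical axes that start at 0. GAS5 stands at 74.6 and 73.2 CPM in miR92b_inhibitor against 30.1 and 35.6 in miRcontrol, and SNHG8 at 4.23 and 3.96 CPM in miR3124_mimic.

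The third comparison asked how the host genes responded to the miR-200b-3p mimic. With it 4 members (10.5%) were higher and 6 (15.8%) lower, and 40.6% of all genes were called (21.4% higher and 19.1% lower). With a fold change of at least 2, 1 member was higher and 1 lower, against 2.72% and 2.16% of all genes. MIRLET7BHG, host of let-7a-3 and let-7b, went from 6.07 and 8.18 to 3.29 and 3.74 CPM (-1.00 ± 0.19, adjusted p = 2.186e-05). SNHG1 and SNHG3 were lower by smaller amounts, -0.32 ± 0.06 and -0.36 ± 0.07. SNHG19 had 4.34 and 6.79 CPM against 8.815 and 8.71 in miRcontrol (-0.62 ± 0.17), and its call was lost without miR200b_mimic replicate 1 (-0.37, adjusted p = 0.121). SNHG4 (-0.38 ± 0.15) lost its call without miR200b_mimic replicate 1 (-0.28, adjusted p = 0.242) or miRcontrol replicate 2 (-0.27, adjusted p = 0.284), and MIR100HG (-0.35 ± 0.09) without miRcontrol replicate 2 (-0.25, adjusted p = 0.0709). 
MIR4435-2HG, a long non-coding RNA of myeloid cell survival, was higher, at 118 and 111 CPM against 84.7 and 86.5 (0.42 ± 0.05, adjusted p = 6.37e-10). DANCR, named for its role in holding back differentiation, rose from 24.2 and 23.2 to 30.4 and 28.4 CPM (0.31 ± 0.08, adjusted p = 0.00241). MIR31HG, host of miR-31, had 14.6 and 14.6 CPM in miRcontrol and 22.3 and 17.1 in miR200b_mimic (0.42 ± 0.12). Its libraries in the transfected group stood apart from each other, and without replicate 1 the difference was 0.24 (adjusted p = 0.195). SNHG22, the 1 member higher by at least 2-fold, reached 10 counts in only 3 libraries, both of miR200b_mimic and 3miRNA_mixed replicate 1, so it passed the filter through the groups where it was high. It rested on 3 and 4 counts in miRcontrol and 10 and 15 in miR200b_mimic (1.95 ± 0.68, adjusted p = 0.0181). Its call was lost without miR200b_mimic replicate 2 (1.83, adjusted p = 0.116), miRcontrol replicate 1 (1.74, adjusted p = 0.129) or miRcontrol replicate 2 (2.19, adjusted p = 0.0665), and DESeq2 gave it no adjusted p.

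With all 3 agents, the host genes moved in both directions. Of the 38 members 6 (15.8%) were higher and 8 (21.1%) lower than in miRcontrol, against 42.7% of all genes, 21.5% higher and 21.1% lower. In place of these 14 calls DESeq2 made 6, with 35.7% called of the genes to which it gave an adjusted p. It lost MIR100HG, MIR31HG, MIR924HG, SNHG3, SNHG5, SNHG8, SNHG19 and ZFAS1. In edgeR fewer members were called when a library of either group was left out, and the share of all genes called fell too. Of the 6 higher and 8 lower members, 0 and 2 passed a fold change of 2, against 3.14% and 1.53% of all genes. The median log2 fold change of the members was -0.0046, against 0.0030 for all genes. GAS5 had 47.8 and 48.3 CPM in the mixed group (0.55 ± 0.07, adjusted p = 5.55e-09) and DANCR 33.7 and 32.8 CPM (0.49 ± 0.08, adjusted p = 1.886e-06). SNHG16 rose by 0.17 ± 0.04 and MIR4435-2HG by 0.18 ± 0.05. SNHG8 (0.36 ± 0.13) and ZFAS1 (0.17 ± 0.06) were also called higher, but ZFAS1 lost its call without 3miRNA_mixed replicate 2 (0.16, adjusted p = 0.0696) or miRcontrol replicate 1 (0.14, adjusted p = 0.139). SNHG8 lost its call without 3miRNA_mixed replicate 2 (0.22, adjusted p = 0.298), miRcontrol replicate 1 (0.39, adjusted p = 0.0539) or miRcontrol replicate 2 (0.34, adjusted p = 0.0924).
Among the falls, MIR210HG had 14 and 14 counts against 31 and 36 (-1.35 ± 0.39, adjusted p = 0.00384), below both control libraries as it was in the miR3124_mimic and miR92b_inhibitor groups. These 3 comparisons share the control libraries, so they are not separate observations of the control level. MIR924HG had 22 and 11 counts against 34 and 29 (-1.02 ± 0.38). Without 3miRNA_mixed replicate 2 its difference was -0.60 (adjusted p = 0.328), and the call was also lost without miRcontrol replicate 1 (-0.94, adjusted p = 0.133) or replicate 2 (-1.11, adjusted p = 0.0586). MIRLET7BHG fell by 0.62 on the log2 scale (SE 0.17), a call lost without 3miRNA_mixed replicate 2 (-0.44, adjusted p = 0.0977) or miRcontrol replicate 2 (-0.40, adjusted p = 0.146). SNHG19 changed by -0.54 ± 0.16, a call lost without 3miRNA_mixed replicate 1 (-0.37, adjusted p = 0.130), and SNHG5, host of SNORD50A and SNORD50B, by -0.42 ± 0.15, a call lost without 3miRNA_mixed replicate 2 (-0.36, adjusted p = 0.143) or miRcontrol replicate 2 (-0.37, adjusted p = 0.127).

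Setting the mixed group beside each single agent leaves the control out. Against miR3124_mimic 18 members (47.4%) were higher and 1 (2.63%) was lower in the mixed group, with 49.1% of all genes called, 25.3% higher and 23.8% lower. SNHG8 differed by 1.52 ± 0.15 and GAS5 by 1.03 ± 0.07. The 18 include SNHG22 (1.71), which passed the filter on low counts through the groups where it was high, the mixed group among them. It had 4 and 2 counts in miR3124_mimic, and DESeq2 lost its call (adjusted p = 0.162). MIRLET7BHG was the member lower (-0.52 ± 0.18), a call lost without 3miRNA_mixed replicate 2 (-0.33, adjusted p = 0.222) or miR3124_mimic replicate 1 (-0.43, adjusted p = 0.106). Against miR92b_inhibitor 14 members (36.8%) were lower and 2 (5.26%) higher, with 39.6% of all genes called (19.7% higher and 19.9% lower). GAS5 was lower in the mixed group by -0.62 ± 0.06 and SNHG1 by -0.54 ± 0.05, while DANCR (0.26 ± 0.08) and SNHG16 (0.20 ± 0.04) were the 2 that were higher. The call of DANCR was lost without 3miRNA_mixed replicate 1 (adjusted p = 0.0561) or miR92b_inhibitor replicate 2 (adjusted p = 0.0572). Against miR200b_mimic 7 members (18.4%) were higher and 3 (7.89%) lower, with 38.6% of all genes called (18.2% higher and 20.4% lower), and DESeq2 called 6 in place of these 10. GAS5 was 0.66 ± 0.07 higher and MIR31HG differed by -0.74 ± 0.12. In this comparison DESeq2 lost MIR155HG, SNHG3, SNHG5 and ZFAS1. Against miR3124_mimic it called 14 in place of 19 (38.2% of genes given an adjusted p), and lost MIR155HG, MIRLET7BHG, SNHG11, SNHG19 and SNHG22. Against miR92b_inhibitor it called 12 in place of 16 (30.7%), and lost DANCR, SNHG4, SNHG6 and SNHG8. For 13 of the 23 snoRNA hosts both mixed libraries lay above both libraries of the miR-3124-5p mimic and below both of the miR-92b inhibitor, as they did for 15.1% of all genes tested. For a further 13.9% of all genes they lay between in the reverse order. The 15.1% is over genes with either order of these 2 groups, so it does not separate the mixed group from that order.

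Across the 5 groups the order of GAS5 was miR3124_mimic (23.6 and 23.5 CPM), miR200b_mimic (30.2 and 30.6), miRcontrol (30.1 and 35.6), mixed (47.8 and 48.3) and miR92b_inhibitor (74.6 and 73.2). Of these neighbours miR200b_mimic and miRcontrol did not differ beyond their spread (-0.11 ± 0.08, adjusted p = 0.270). ZFAS1 had the order miR3124_mimic (43.3 and 49.2), miRcontrol (60.6 and 63.7), miR200b_mimic (60.8 and 64.3), mixed (69.7 and 70.5) and miR92b_inhibitor (83.6 and 84.0), and again miRcontrol and miR200b_mimic were not told apart (0.01 ± 0.06). DANCR ran differently, with 15.5 and 18.1 CPM in miR3124_mimic, 24.2 and 23.2 in miRcontrol, 28.1 and 27.6 in miR92b_inhibitor, 30.4 and 28.4 in miR200b_mimic and 33.7 and 32.8 in the mixed group. Its top was the mixed group, which did not differ from miR200b_mimic beyond the spread (0.18 ± 0.08, adjusted p = 0.0694). The single agents were not compared with one another. EPB41L4A-AS1, host of SNORA13, had 3.21 to 4.93 CPM over the 10 libraries and was called in no comparison with miRcontrol, where its log2 fold changes were -0.25 ± 0.21, 0.11 ± 0.20, 0.29 ± 0.19 and 0.10 ± 0.20. No library of miR3124_mimic reached the lower control library, but the SEs are too wide to tell a change of that size from none.

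Many hosts lie head to head with, or across from, a gene on the other strand, and 22 such neighbours were listed in the count tables. No source used here said whether reads were counted by strand, so counts of overlapping genes may be mixed. SNHG1 starts 188 bases from SLC3A2, the heavy chain of the CD98 amino acid transporters, with which it does not overlap. SLC3A2 was lower with the miR-3124-5p mimic (-0.42 ± 0.04) and higher with the miR-92b inhibitor (0.48 ± 0.04), as SNHG1 was (-0.65 ± 0.06 and 0.50 ± 0.05). With the miR-200b-3p mimic SNHG1 was lower (-0.32 ± 0.06) while SLC3A2 did not pass (-0.05 ± 0.04). ZBTB37, a zinc finger gene whose start overlaps that of GAS5 by 801 bases, was higher in miR3124_mimic (0.78 ± 0.12), where GAS5 was lower (-0.48 ± 0.08), and did not pass with the inhibitor (0.06 ± 0.13), where GAS5 was at 1.17 ± 0.07. In the mixed group ZBTB37 was higher (0.70 ± 0.12), as GAS5 was. ZNFX1, an antiviral helicase gene that overlaps ZFAS1 by 249 bases at its start, was higher in miR200b_mimic (0.69 ± 0.04) and lower with the inhibitor (-0.21 ± 0.04). In the mixed group it was higher (0.13 ± 0.04). FAM69B, across from SNHG7, was 1.16 ± 0.15 in miR3124_mimic, where SNHG7 was -0.80 ± 0.09. FAM69B was also higher in the mixed group (0.54 ± 0.16), where SNHG7 was not called. MYO5B, a myosin motor gene that overlaps SNHG22 by 28247 bases, was higher in miR200b_mimic (1.70 ± 0.08) and in the mixed group (1.34 ± 0.08), the groups in which SNHG22 had its largest values. MYO5B was also higher in miR3124_mimic (0.56 ± 0.09), where SNHG22 had its lowest mean (0.193 CPM). With 1 to 15 counts per library for SNHG22 and 237 to 793 for MYO5B, reads from the larger gene could be counted on the smaller, and this was not tested.
RPS2, a ribosomal protein gene that starts 99 bases from SNHG9, was lower in all 4 comparisons. The largest difference was in the mixed group (-0.52 ± 0.04), where SNHG9 was at 0.44 ± 0.47. The others were -0.11 ± 0.04 (miR3124_mimic), -0.16 ± 0.04 (miR200b_mimic) and -0.20 ± 0.04 (miR92b_inhibitor). BCL7C, across from MIR762HG, was lower in miR3124_mimic (-0.55 ± 0.07), in miR200b_mimic (-0.42 ± 0.07) and in the mixed group (-0.44 ± 0.07), while MIR762HG passed in none. EPB41L4A was lower in miR3124_mimic (-0.79 ± 0.25). TRAF7, which starts 340 bases from SNHG19, and SIL1, which overlaps SNHG4, did not pass in miR3124_mimic (-0.10 ± 0.05 and -0.13 ± 0.09), where both hosts were lower. SEMA5A, which starts 125 bases from SNHG18, was at -0.59 ± 0.30 with the inhibitor and did not pass. ACAA2, which starts 63 bases from SNHG22, was higher in miR200b_mimic (0.42 ± 0.09), in miR3124_mimic (0.33 ± 0.09) and in the mixed group (0.26 ± 0.09). BCL2L11, across from MIR4435-2HG, passed in none of the 4 comparisons.

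**Figure D4:**
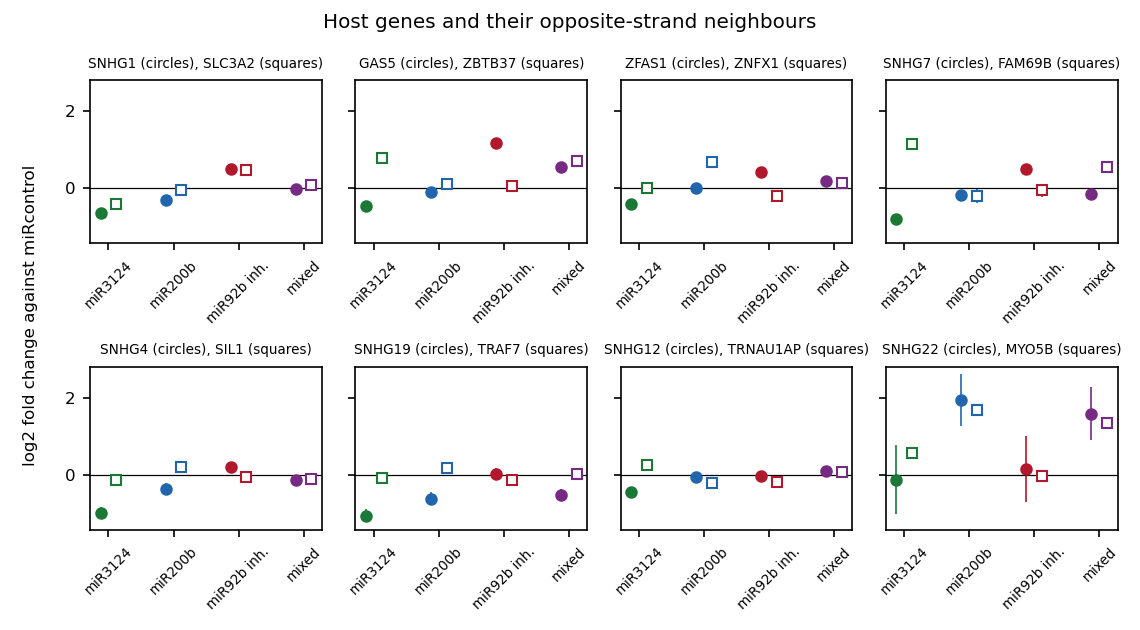
Log2 fold change against miRcontrol of 8 members (filled circles) and of their neighbours on the opposite strand (open squares), with bars of 1 SE. SNHG1 and SLC3A2 lie on the same side of 0 in miR3124_mimic and in miR92b_inhibitor, and GAS5 and ZBTB37 lie on opposite sides in miR3124_mimic.

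The proteins that act on snoRNAs and on host transcripts were counted in the same fit. Of all genes tested, 25.7% were higher and 25.3% lower with the miR-3124-5p mimic, and 17.5% and 18.2% with the inhibitor. These shares were 21.4% and 19.1% with the miR-200b-3p mimic, and 21.5% and 21.1% in the mixed group. Of 14 tested proteins of snoRNA-protein particles (snoRNPs) and their assembly, 8 (57.1%) were lower and 0 higher with the miR-3124-5p mimic. SNU13 was at -0.49 ± 0.05 and SHQ1, an assembly factor of H/ACA particles, at -0.74 ± 0.09. With the miR-92b inhibitor 11 (78.6%) were higher and 0 lower, with DKC1, the pseudouridine synthase, at 0.54 ± 0.04 and NOP58 at 0.35 ± 0.05. With the miR-200b-3p mimic 4 (28.6%) were higher and 3 (21.4%) lower (NOLC1 0.28 ± 0.04, NOP56 -0.29 ± 0.04). In the mixed group 6 (42.9%) were higher and 3 (21.4%) lower (DKC1 0.49 ± 0.04, NOLC1 0.32 ± 0.04). The medians of this list were -0.21, 0.22, -0.0005 and 0.07 on the log2 scale, in that order, and none of its members changed 2-fold.
Of 14 factors of nonsense-mediated decay, 1 (7.14%) was higher and 8 (57.1%) were lower with the miR-3124-5p mimic. Those lower included SMG1, the kinase of the pathway (-0.41 ± 0.04), and SMG6, its endonuclease (-0.43 ± 0.06). With the inhibitor 8 (57.1%) were higher and 3 (21.4%) lower, with UPF3B at 0.44 ± 0.08 and MAGOH, a core protein of the exon junction complex, at 0.40 ± 0.08. In miR200b_mimic 1 (7.14%) was higher and 9 (64.3%) were lower, with SMG1 at -0.30 ± 0.04 and EIF4A3 at -0.29 ± 0.04. In the mixed group 2 (14.3%) were higher and 6 (42.9%) lower, with SMG6 at -0.40 ± 0.06 and CASC3 at -0.21 ± 0.05. The median log2 fold changes of the decay factors were smaller than these named values. They were -0.12 (miR3124_mimic), 0.15 (miR92b_inhibitor), -0.23 (miR200b_mimic) and -0.02 (mixed). In miR3124_mimic and with the inhibitor most of the called decay factors lay on the same side of the control as most of the called snoRNA hosts. In miR200b_mimic 4 of the 6 called snoRNA hosts were lower, as most decay factors were, but in the mixed group 5 of the 8 called snoRNA hosts were higher while 6 of the 8 called decay factors were lower. Whether the one bears on the other was not tested.

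Of 16 tested TOP messenger RNAs outside the ribosomal proteins, 13 (81.2%) were lower and 0 higher with the miR-3124-5p mimic. HNRNPA1 was at -0.52 ± 0.04 and EEF2, the elongation factor that moves the ribosome along, at -0.45 ± 0.03. With the inhibitor 8 (50%) were higher and 4 (25%) lower (NACA 0.37 ± 0.03, BTF3 0.28 ± 0.04). With the miR-200b-3p mimic 4 (25%) were higher and 4 (25%) lower (HNRNPA1 -0.23 ± 0.04, EIF4B -0.20 ± 0.04). In the mixed group 5 (31.2%) were higher and 4 (25%) lower (HNRNPA1 -0.37 ± 0.04, BTF3 0.18 ± 0.04). The median log2 fold changes of this list were -0.21 (miR3124_mimic), 0.13 (miR92b_inhibitor), -0.04 (miR200b_mimic) and 0.01 (mixed).
Protein-coding hosts allowed a comparison of the class itself. Of 141 coding genes that hold a snoRNA gene, 77 (54.6%) were lower and 23 (16.3%) higher with the miR-3124-5p mimic. PABPC4 (-1.07 ± 0.04) and EIF4G1 (-0.76 ± 0.03) were among those lower. With the inhibitor 55 (39%) were higher and 27 (19.1%) lower, with ODC1, of polyamine synthesis, at 0.63 ± 0.04. DKC1 is itself such a host and counts in both lists. The lists were not made to exclude one another, so the snoRNP, TOP and coding host lists may share other genes. Their counts are then not separate observations. With the miR-200b-3p mimic 34 (24.1%) were higher and 21 (14.9%) lower (NCAPD2 -0.64 ± 0.04, AMMECR1 0.84 ± 0.06), near the shares of all genes. In the mixed group 41 (29.1%) were higher and 30 (21.3%) lower (NCAPD2 -0.68 ± 0.04, ODC1 0.55 ± 0.04). Of 731 coding genes that hold a miRNA gene, 238 (32.6%) were higher and 227 (31.1%) lower with the miR-3124-5p mimic (LMNB2 -1.26 ± 0.04, ZYX -1.43 ± 0.04). These numbers were 207 (28.3%) and 162 (22.2%) with the miR-200b-3p mimic (LAMB3 1.81 ± 0.04, PATJ 2.55 ± 0.08). They were 114 (15.6%) and 212 (29%) with the inhibitor (GPRC5A -0.80 ± 0.04). In the mixed group they were 183 (25%) and 215 (29.4%) (LAMB3 1.78 ± 0.04, SEMA7A 1.19 ± 0.04). The median of the coding snoRNA hosts was -0.17 with miR-3124-5p and 0.08 with the inhibitor, and that of the non-coding ones was -0.47 and 0.26. These lists were described by counts, and no test between them was made.

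**Figure D5:**
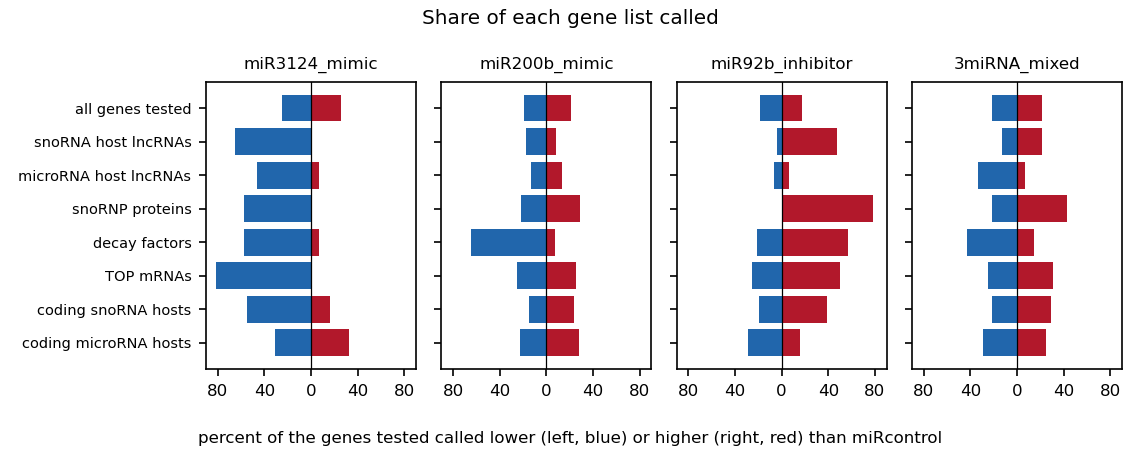
Share of the genes tested in each list that was lower (left, blue) or higher (right, red) than miRcontrol at an adjusted p under 0.05, by comparison, with all 14884 genes on top. In miR3124_mimic no snoRNA host, snoRNP protein or TOP messenger RNA was called higher, and in miR92b_inhibitor no snoRNP protein was called lower.

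Because TOP RNAs start with a C followed by pyrimidines, 30 bases around the RefSeq start (10 before and 20 from it) were read for the 33 members with an entry. A C followed by at least 5 further pyrimidines, beginning within 3 bases of the start, was present in 6 of 33 (18.2%), against 8.56% of 35116 promoters. Within 10 bases it was present in 10 of 33 (30.3%), against 20.8%. Of the 20 snoRNA hosts with an entry, 4 had such a run within 3 bases: SNHG4, SNHG12, SNHG19 and SNHG18. The first 3 were lower with the miR-3124-5p mimic, and their windows are shown with the run in capitals. SNHG18, with a run of 22 bases, was not called with that mimic. SNHG16, SNHG3, SNHG17, SNHG7, SNHG8, SNHG5 and DANCR were lower without such a run. So were SNHG1 and ZFAS1, whose windows are shown for comparison. Runs of pyrimidines that fell short of this rule lay at the start of both, and also of SNHG5 and SNHG7. In SNHG8 a run ended on the start base, having begun more than 3 bases before it.
SNHG4 (GRCh38.p14 chr5:139274091-139274120, plus strand): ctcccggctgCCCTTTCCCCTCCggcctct
SNHG12 (GRCh38.p14 chr1:28581854-28581883, minus strand): gcttcagcgCCCTTTCTCCCCgccgcattc
SNHG19 (GRCh38.p14 chr16:2155339-2155368, minus strand): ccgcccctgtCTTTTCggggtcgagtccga
SNHG1 (GRCh38.p14 chr11:62855866-62855895, minus strand): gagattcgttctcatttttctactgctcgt
ZFAS1 (GRCh38.p14 chr20:49278632-49278661, plus strand): gccattcgttctttcgcgtctgcggtgccc
A match is a description of letters only, and a RefSeq start need not be the start used in these cells. For GAS5, MIR31HG, MIR17HG, SNHG3 and DANCR the RefSeq start lay outside the GENCODE gene. Their windows, which are among the 33, may not hold the start of the gene. For SNHG16 and SNHG4 it lay just outside, and for SNHG12 it lay well inside the GENCODE gene.

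The DNA word complementary to each agent's seed was also looked for, on the transcript strand, in the spliced GENCODE transcripts of the 37 matched members. CCCGCGA (miR-3124-5p) was in at least 1 transcript of 2 members, SNHG12 and MIR503HG, of which the first was lower and the second higher with the mimic, and it was in 1.70% of 14898 long non-coding genes. CAGTATT (miR-200b-3p) was in 10 members against 8.48% of those genes. Of the 10, MIR100HG and SNHG4 were lower with the mimic, MIR4435-2HG and SNHG22 were higher, and 6 were not called. GTGCAAT (miR-92b-3p) was in 5 members against 8.26%, of which SNHG17 was higher with the inhibitor and 4 were not called. CCGTCCC (miR-92b-5p) was in 7 members against 3.87%, of which MIR4435-2HG, SNHG17, SNHG7 and SNHG11 were higher and 3 were not called. Of all 38 members, 31.6% were higher and 5.26% lower with the inhibitor, against 17.5% and 18.2% of all genes. With the miR-3124-5p mimic these were 2.63% and 57.9%, against 25.7% and 25.3%. With the miR-200b-3p mimic they were 10.5% and 15.8%, against 21.4% and 19.1%. Whether members with a word differed from the others was not tested. The call of SNHG12 with the miR-3124-5p mimic was lost without miR3124_mimic replicate 1 (-0.40, adjusted p = 0.0545), and that of SNHG11 with the inhibitor in DESeq2 (adjusted p = 0.0808) and without miR92b_inhibitor replicate 2 (0.44, adjusted p = 0.0940) or miRcontrol replicate 1 (0.44, adjusted p = 0.0921). The members have many annotated transcripts, which gives a word more letters to occur in. GAS5, SNHG1, ZFAS1, SNHG3, SNHG8, DANCR and SNHG16 held none of these words, and MIRLET7BHG did not hold CAGTATT.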

How the data were processed

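RNA of BEAS2B cells was sequenced by the authors as poly(A)-selected, directional, paired-end libraries. Per the labels and the study's methods, the authors checked and trimmed the reads (FastQC, FASTX_Trimmer, BBMap) and mapped them with TopHat to GRCh38; the annotation, the counting tool and its strand setting are not given in the sources used here. The 10 deposited tables, 2 per group, hold raw counts of reads on 58173 gene rows, of which 5771 repeat a symbol. Counts of repeated symbols were summed, which concerned 2 member symbols on 77 member rows in all (MIR210HG and MIR22HG). Library totals were 13587666 to 18503890.

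Counts were fitted in R 4.3.3 with edgeR 4.0.16 (filterByExpr, RLE normalization, glmQLFit and glmQLFTest) over all 10 libraries without covariates, 14884 genes passed the filter, and the common dispersion was 0.000752. P-values are two-sided and Benjamini-Hochberg adjusted over all genes tested; SE is the log2 fold change divided by the root of its F. The script was tested on simulated data. Replicate numbers carried no pairing, since the difference of replicate 2 from replicate 1 had correlations of -0.0625 to 0.0613 over 10419 genes in the 10 pairs of groups. Positions, neighbours on the opposite strand (overlapping, or starting within 1000 bases) and transcripts came from GENCODE release 29 (37 of 39 members matched), small RNAs and sequences from RefSeq GRCh38.p14.

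The members and all gene lists were chosen with earlier results of these data known. Named with values were GAS5, DANCR, ZFAS1 and EPB41L4A-AS1, members called with a fold change of at least 2, the 5 largest rises and falls per comparison with miRcontrol among called members with a mean CPM of at least 1, the 5 members with the highest mean CPM, their neighbours, and the 2 genes of each list with the lowest p, of which 1 gene is not reported here. SNHG10, MIR600HG and MIR17HG were named after their values were seen. Alternatives were edgeR's TMM, library totals only, DESeq2 1.42.0, 2-group fits, no filter, at least 10 counts in every library, the highest row of a repeated symbol, a replicate block, and leaving out each library.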

Additional observations from a re-analysis of the deposited data

How the results depend on the processing

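Of 1264 alternative values of single called members, none turned direction, 1119 kept the call and 145 lost it, 100 of these with a library left out and 31 in DESeq2; of the 23, 10, 14 and 14 calls against miRcontrol (miR3124_mimic, miR200b_mimic, miR92b_inhibitor, mixed), 13, 5, 10 and 5 held in every alternative that gave an adjusted p (DESeq2 gave none for MIR210HG and SNHG18 with the inhibitor, nor for SNHG22 in miR200b_mimic). The replicate numbers share only a number; with a replicate block the counts of called members stayed at 23, 10, 14 and 14 against miRcontrol and 26 in the F test, and no call of a member was lost. DESeq2 called 9 members for the inhibitor (30.5% of genes given an adjusted p), 6 for the mixed group against miRcontrol (35.7%) and 6 for the mixed group against miR200b_mimic (32.5%), in place of 14, 14 and 10. For miR3124_mimic it called 17 (41%) in place of 23, and for miR200b_mimic 8 (33.9%) in place of 10. For the mixed group it called 14 (38.2%) in place of 19 against miR3124_mimic and 12 (30.7%) in place of 16 against miR92b_inhibitor. Of the 19, 10 and 16 calls of the mixed group against miR3124_mimic, miR200b_mimic and miR92b_inhibitor, 14, 6 and 9 held in every alternative. The median log2 fold change of the members in miR3124_mimic was -0.38 with library totals only, -0.45 with at least 10 counts in every library (31 members) and -0.44 with only the groups compared, in place of -0.40. 

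With 1 library of a compared group left out, that group rested on 1 library. The share of all genes called then fell in every comparison, with miRcontrol and between the mixed group and each single agent. The number of members called fell too, except that for miR200b_mimic it did not fall in every such fit. Medians ranged from -0.39 to -0.36 (miR3124_mimic), -0.23 to -0.0924 (miR200b_mimic), 0.10 to 0.26 (miR92b_inhibitor), -0.0465 to 0.0498 (mixed) and 0.32 to 0.40 (mixed against miR3124_mimic); 0.10 was without miRcontrol replicate 1, and the sign of the mixed median depended on the library left out. Called decay factors ranged to 6 (miR200b_mimic, without miRcontrol replicate 1), 7 (miR92b_inhibitor, without its replicate 1) and 5 (mixed, without miRcontrol replicate 2), and snoRNP proteins in the mixed group to 5 (without 3miRNA_mixed replicate 1). The 10 members with a mean under 2 CPM had SEs of 0.35 to 0.91 on the log2 scale, against at most 0.33 for the others, and smaller changes of these were not detectable at this depth.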
